A study of Mus musculus with 5 samples.

Results

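DNA replication and licensing genes, 39 mouse genes given as a list of names, were followed in the tumor-bearing hemisphere after ultrasound-mediated blood–brain barrier opening (UMBO). The list was matched by symbol to the Ensembl identifiers of the count tables, and all 39 were found among 55573 genes. All 39 also passed the filter on low counts that left 23592 genes for testing, with at least 26 reads in any library for the rarest member, Orc1. No value measured in these libraries enters the rule, but the list was chosen with earlier results of these data known. It therefore does not support its own direction.

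The libraries came from female C57BL/6 mice that were 7 to 8 weeks old when GL261 cells were placed in the right caudate-putamen. GL261 is a mouse glioma line, here carrying luciferase and mKate2, and only mice whose tumor bioluminescence passed a limit were kept. Vehicle mice received an antibody dilution buffer, and UMBO mice received pulsed ultrasound together with intravenous microbubbles, which opens the barrier for a short time. Both groups were treated on days 21 and 24 and the right hemisphere was taken 24 h after the last session. For the sequencing, the methods describe mice whose tumors were of comparable size by bioluminescence. They also speak of more mice than the libraries given here. Libraries of 3 vehicle and 2 UMBO mice were analysed here. The methods speak of anesthesia for all mice; whether vehicle mice were given microbubbles is not given in the sources used here.

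Before a cell copies its DNA, the origin recognition complex, Cdc6 and Cdt1 load the ring-shaped MCM2-7 helicase on origins, a step called licensing that geminin blocks once S phase has begun. Cdc45 and the GINS complex then turn the ring into a working helicase, and the polymerases, the sliding clamp with its loader, the single-strand binding protein RPA, the flap nuclease and the ligase copy and join the strands. Ribonucleotide reductase and thymidylate synthase supply the building blocks. Most cells of the adult brain do not divide, so transcripts of these genes are known as marks of cycling cells.

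E2F factors are known to control many of these genes from their promoters, so stretches of 5 promoters that hold an E2F-type motif are shown first. They are RefSeq sequences (GRCm38.p6), read 5′ to 3′ on the strand of the gene, with the motif in capitals. The motif searched was TTTCCCGC, TTTGGCGC, TTTCGCGC or TTTGCCGC on either strand, and overlapping matches were allowed. The stretches for Mcm6, Mcm5 and Pola1 are 120 bases that lie before every annotated transcript of the gene. Those for Cdc6 and Orc1 are 30 bases around the match.
Mcm6, chr1:128359716-128359835, minus strand: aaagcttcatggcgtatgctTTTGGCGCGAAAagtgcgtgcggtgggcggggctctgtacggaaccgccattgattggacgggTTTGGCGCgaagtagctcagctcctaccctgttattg
Mcm5, chr8:75109336-75109455, plus strand: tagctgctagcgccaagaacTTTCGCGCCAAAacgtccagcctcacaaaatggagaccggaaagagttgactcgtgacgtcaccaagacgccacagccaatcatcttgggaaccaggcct
Pola1, chrX:93632194-93632313, minus strand: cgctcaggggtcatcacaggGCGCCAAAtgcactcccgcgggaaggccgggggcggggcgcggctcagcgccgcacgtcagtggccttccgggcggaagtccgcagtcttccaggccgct
Cdc6, chr11:98908002-98908031, plus strand: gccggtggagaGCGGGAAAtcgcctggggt
Orc1, chr4:108579416-108579445, plus strand: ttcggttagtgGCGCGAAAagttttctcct
In Mcm6 and Mcm5 the first capitals are overlapping matches on opposite strands, and Mcm6 holds a further match nearer to the start. Windows from 250 bases before to 50 after the start were given for 31 of the 39 genes. The motif was present for 13 of these 31 genes (41.9%), against 572 of the 14234 tested genes with a window (4.02%), where a gene with several windows was counted once if any held the motif. The CCAAT box, letters CCAAT on either strand, was present for 21 of 31 genes (67.7%), against 42.0% of the tested genes with a window. The CHR element, letters TTTGAA on either strand and known from mitosis genes, was present for 5 of 31 genes (16.1%), against 15.5%. A match describes letters in a window and is not a measured binding site.

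Total counts lay between 59736771 and 86164159 per library. In a principal component analysis of all genes tested, the first component held 85.2% of the variance. UMBO replicate 2 lay at 100.8 on it, vehicle replicate 2 at 9.27, UMBO replicate 1 at -11.0 and vehicle replicates 1 and 3 at -51.9 and -47.2. UMBO replicate 2 therefore stood apart from the rest, and each result below is read with that library in mind.

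All 39 replication genes had a higher fitted level with UMBO than with vehicle, where 50.9% of all genes tested did. The median log2 fold change was 1.10 against 0.01 for all genes, from 0.29 for Rfc1, the large subunit of the clamp loader, to 2.12 for Rrm2, the inducible subunit of ribonucleotide reductase. By edgeR's quasi-likelihood test 21 of 39 (53.8%) had an unadjusted p under 0.05, all higher, against 5.3% of all genes that were higher at that p. No replication gene passed the adjusted threshold in edgeR (0 of 23592 genes, 0.0%), with Benjamini-Hochberg adjusted p from 0.497 to 0.530. The DESeq2 Wald test gave adjusted p under 0.05 to 40 of 22403 genes (0.179%), none of them a replication gene. It gave 24 of the 39 an unadjusted p under 0.05. Of the 40435 genes with any read, a wider set, 4.87% were higher at that p.

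The levels varied strongly between libraries of the same group. Values are given as CPM, read counts scaled to the TMM-normalized size of each library. The summed CPM of the 39 genes came to 434, 549.6 and 401 for the vehicle mice in the order of their numbers, and to 514 for the first and 1255 for the second UMBO mouse. UMBO replicate 2 was the highest of the 5 libraries for 39 of 39 genes (40.4% of all genes tested), and vehicle replicate 2 was the highest vehicle library for 39 of 39 (39.3%). UMBO replicate 1 exceeded vehicle replicate 2 for 11 of 39 (49.9%). These 11 genes, whose UMBO libraries both lay above every vehicle library, make up 28.2% of the list against 11.5% of all genes. They are Orc1, Cdc6, Mcm6, Gins2, Pola1, Pola2, Pole, Pole2, Rpa1, Rrm1 and Rrm2.

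**Figure D1:**
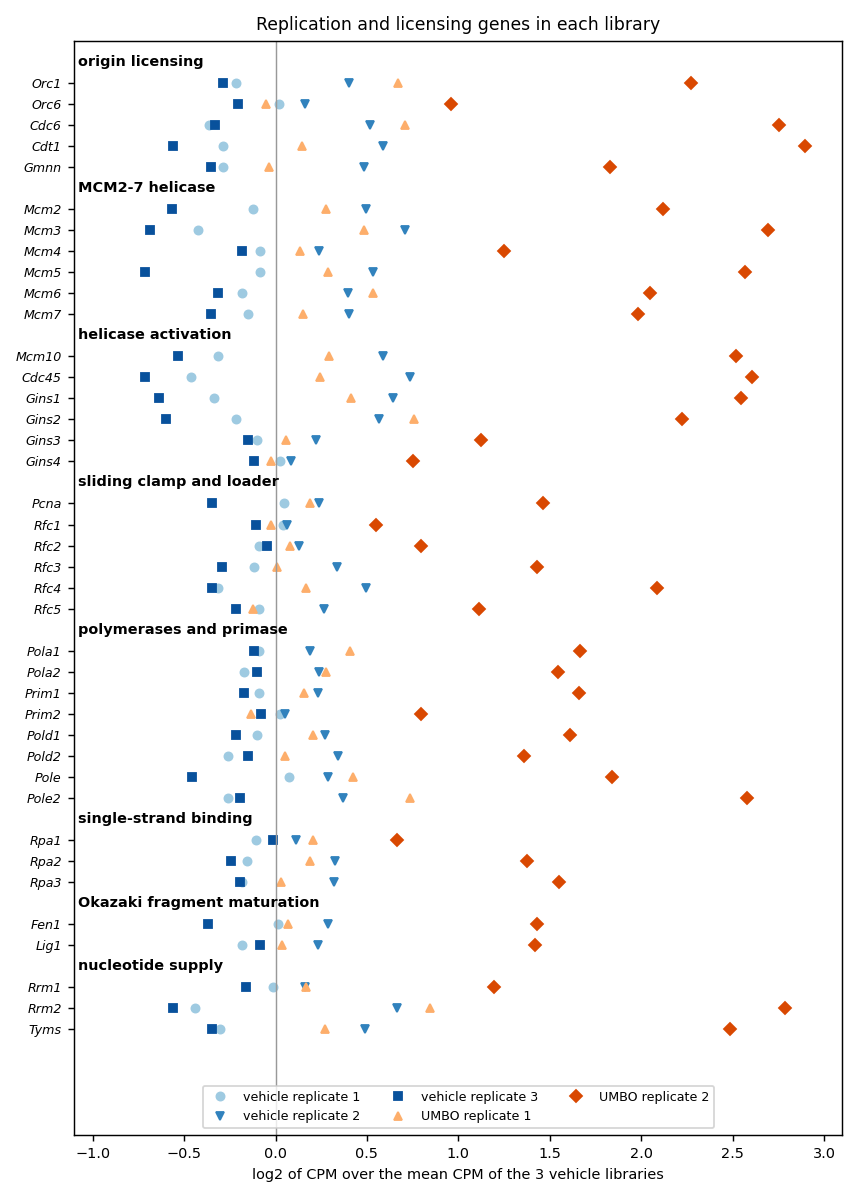
Log2 of the CPM of each replication gene over the mean of the 3 vehicle libraries (horizontal axis), 1 row a gene, grouped by role, with 1 symbol a library. UMBO replicate 2 is the rightmost symbol in 39 of 39 rows and UMBO replicate 1 passes vehicle replicate 2 in 11.

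Relative to the vehicle mean, UMBO replicate 1 lay between 0.912-fold for Prim2 and 1.80-fold for Rrm2, with a median of 1.14. UMBO replicate 2 lay between 1.46-fold for Rfc1 and 7.43-fold for Cdt1, with a median of 3.16. The highest vehicle library exceeded the lowest by a median of 1.55-fold and by up to 2.73-fold for Cdc45. The median log2 of CPM over the vehicle mean was -0.15, 0.33 and -0.29 for the vehicle mice in the order of their numbers. It was 0.19 for UMBO replicate 1, inside the span of the vehicle mice, and 1.66 for UMBO replicate 2, above it.

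Without UMBO replicate 2 the median log2 fold change was 0.19, 33 genes were higher and 6 lower, and 0 of 39 had an unadjusted p under 0.05 by edgeR (1.15% of all genes were higher at that p). Without UMBO replicate 1 the median was 1.63 and 39 of 39 had an unadjusted p under 0.05 (21.4% of all genes), of which 34 also passed the adjusted threshold, as did 10.1% of all genes in the higher direction. In each of these fits the lone UMBO library is assumed to vary as the vehicle libraries do. Leaving out vehicle replicate 1 or vehicle replicate 3 gave 0 of 39 (0.838% and 0.945% of all genes), with medians of 1.05 and 1.01. Without vehicle replicate 2 there were 21 of 39 (9.36% of all genes), a median of 1.27, and 34 genes whose groups did not overlap, against 30.1% of all genes with both UMBO libraries above the 2 vehicle libraries left. No count of genes past the unadjusted threshold given below for a role held without UMBO replicate 2, vehicle replicate 1 or vehicle replicate 3.

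**Figure D2:**
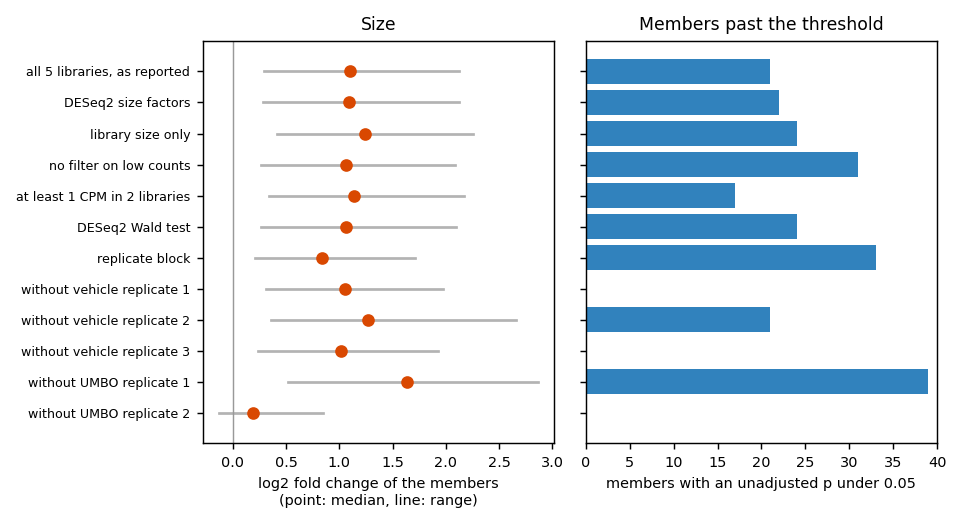
Left, median (point) and range (line) of the log2 fold change of the replication genes, UMBO against vehicle, in the reported fit and in each alternative. Right, number of these genes with an unadjusted p under 0.05, out of 39 (38 where at least 1 CPM in 2 libraries was required). The bar is 0 without vehicle replicate 1, vehicle replicate 3 or UMBO replicate 2, and 39 without UMBO replicate 1.

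Origin licensing was measured by 5 genes, of which 3 had an unadjusted p under 0.05 and the median log2 fold change was 1.68. Cdc6, the ATPase that joins the origin complex to load the helicase, measured 1.26, 2.31 and 1.29 CPM with vehicle and 2.64 and 10.9 CPM with UMBO, always given here in the order of the replicate numbers. Its UMBO libraries lay above the vehicle libraries, UMBO replicate 1 by little, with a log2 fold change of 2.07 (SE 0.63, edgeR unadjusted p 0.0172). Orc1, the origin subunit that comes and goes with the cell cycle, measured 0.348, 0.534 and 0.331 CPM with vehicle and 0.643 and 1.95 CPM with UMBO. The groups did not overlap and the log2 fold change was 1.68 (SE 0.55, edgeR unadjusted p 0.0228). Orc6, the smallest origin subunit, measured 20.6, 22.8 and 17.6 CPM with vehicle and 19.6 and 39.6 CPM with UMBO. UMBO replicate 1 lay inside the vehicle range, and the log2 fold change of 0.54 (SE 0.32, edgeR unadjusted p 0.141) did not pass. Cdt1, the loading factor, had a log2 fold change of 2.09 (edgeR unadjusted p 0.0360) and Gmnn, which encodes its inhibitor geminin, one of 1.18 (edgeR unadjusted p 0.0857).

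The ratio of Cdt1 to Gmnn was taken on the TPM scale. There, counts are divided by the joined length of all annotated exons of a gene before they are scaled to the library. Ranks between genes on that scale depend on this length. The Cdt1 to Gmnn ratio was 0.374, 0.403 and 0.323 with vehicle and 0.423 and 0.783 with UMBO. Both UMBO values lay above the vehicle values, UMBO replicate 1 by a small margin. For a single value such as this ratio, an exact permutation test over the 10 groupings cannot go below p = 0.1, so no ratio can reach 0.05.

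The MCM2-7 helicase genes numbered 6, of which 5 had an unadjusted p under 0.05, with a median log2 fold change of 1.48. Mcm6 measured 13.4, 20.0 and 12.2 CPM with vehicle and 22.0 and 62.9 CPM with UMBO. It was the only subunit gene of the ring whose groups did not overlap, at a log2 fold change of 1.48 (SE 0.46, edgeR unadjusted p 0.0182). Its promoter stretch is printed above with 3 motif matches, and Mcm3, Mcm5 and Mcm7 held 2 matches each. A relation of the motif to the difference was not tested. Mcm3 measured 5.51, 12.05 and 4.58 CPM with vehicle and 10.3 and 47.8 CPM with UMBO. UMBO replicate 1 lay below vehicle replicate 2, and the log2 fold change was 1.98 (SE 0.70, edgeR unadjusted p 0.0306). Mcm4 measured 14.5, 18.2 and 13.5 CPM with vehicle and 16.9 and 36.7 CPM with UMBO. It was the ring gene with the smallest log2 fold change, 0.80 (SE 0.35, edgeR unadjusted p 0.0613). Mcm2, Mcm5 and Mcm7 had log2 fold changes of 1.47, 1.84 and 1.34.

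The 6 proteins form the ring in equal numbers, but the TPM of their genes were not equal. The summed TPM of the 6 genes was 38.7, 54.4 and 38.7 with vehicle and 57.3 and 164.3 with UMBO. Mcm2 had the lowest TPM in every library, between 5.78% and 6.82% of the sum. Its joined exon length is 6956 bp, against 3752 bp for Mcm3. By CPM, Mcm2 was above Mcm3 in vehicle replicate 1 (7.03 against 5.51) and vehicle replicate 3 (5.16 against 4.58). It was below Mcm3 in vehicle replicate 2, UMBO replicate 1 and UMBO replicate 2. Mcm4 had the highest TPM in the 3 vehicle libraries, though by little in vehicle replicate 2. In UMBO replicate 1 Mcm6 and Mcm4 were level, at 22.73% and 22.71% of the sum, and in UMBO replicate 2 Mcm7 and Mcm5 were, at 21.04% and 20.92%. The share of Mcm4 in the sum was 26.7%, 22.3% and 29.4% with vehicle and 22.7% and 14.4% with UMBO. The share of Mcm3 was 9.69%, 14.1% and 9.52% with vehicle and 13.2% and 17.9% with UMBO. UMBO replicate 1 was close to vehicle replicate 2 in both shares.

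**Figure D3:**
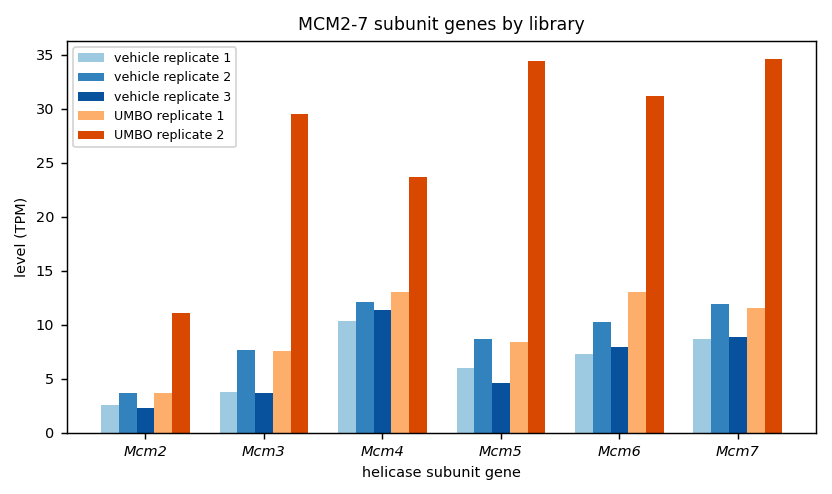
Level in TPM (vertical axis) of the 6 MCM2-7 helicase genes in each of the 5 libraries, 1 bar a library. Mcm4 is the highest gene in the vehicle libraries, while in UMBO replicate 2 it is lower than Mcm3, Mcm5, Mcm6 and Mcm7.

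Helicase activation was represented by 6 genes, of which 4 had an unadjusted p under 0.05, with a median log2 fold change of 1.73. Gins2, a subunit of the 4-part GINS complex, measured 1.43, 2.46 and 1.10 CPM with vehicle and 2.81 and 7.76 CPM with UMBO. The groups did not overlap and the log2 fold change was 1.67 (SE 0.55, edgeR unadjusted p 0.0231). Gins1 measured 1.14, 2.24 and 0.921 CPM with vehicle and 1.91 and 8.35 CPM with UMBO, and UMBO replicate 1 lay inside the vehicle range. Its log2 fold change was 1.84 (SE 0.69, edgeR unadjusted p 0.0377). Gins4 was unlike them, with 14.8, 15.5 and 13.5 CPM with vehicle and 14.4 and 24.5 CPM with UMBO. Its log2 fold change was 0.41 (SE 0.27, edgeR unadjusted p 0.170), so genes for subunits of one complex differed in level and in the size of the difference. Gins3 had a log2 fold change of 0.68, and Mcm10 and Cdc45, which bind the ring as it starts to unwind DNA, had 1.80 and 1.86.

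Of the 6 genes for the sliding clamp and its loader, 1 had an unadjusted p under 0.05, and the median log2 fold change was 0.76. Pcna, the clamp that holds the polymerases on DNA, measured 32.8, 37.4 and 25.0 CPM with vehicle and 36.2 and 87.4 CPM with UMBO. UMBO replicate 1 lay inside the vehicle range, and the log2 fold change was 0.96 (SE 0.39, edgeR unadjusted p 0.0476). Rfc4, a small subunit of the loader, measured 3.44, 6.04 and 3.37 CPM with vehicle and 4.81 and 18.2 CPM with UMBO, at a log2 fold change of 1.43 (SE 0.58, edgeR unadjusted p 0.0507). Rfc1, the large subunit, measured 48.1, 49.0 and 43.4 CPM with vehicle and 46.0 and 68.6 CPM with UMBO. Its 4 libraries other than UMBO replicate 2 lay close together, and the log2 fold change was 0.29 (SE 0.21, edgeR unadjusted p 0.223). Rfc2, Rfc3 and Rfc5 had log2 fold changes of 0.48, 0.89 and 0.62.

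Polymerase and primase genes numbered 8, with a median log2 fold change of 1.08. Of these, 6 had an unadjusted p under 0.05 (5.3% of all genes were higher at that p). In 4 the UMBO libraries both lay above every vehicle library (11.5% of all genes). Pole2, the second subunit of the leading-strand polymerase, measured 0.575, 0.890 and 0.602 CPM with vehicle and 1.15 and 4.12 CPM with UMBO. It had the smallest p of the 39, with a log2 fold change of 1.93 (SE 0.58, edgeR unadjusted p 0.0159). Pola1, the catalytic subunit of the polymerase that extends primers, measured 5.78, 7.03 and 5.67 CPM with vehicle and 8.17 and 19.5 CPM with UMBO. Both UMBO libraries lay above vehicle, at a log2 fold change of 1.17 (SE 0.39, edgeR unadjusted p 0.0234). Prim2, the large primase subunit, measured 8.08, 8.23 and 7.50 CPM with vehicle and 7.24 and 13.8 CPM with UMBO. UMBO replicate 1 was the lowest of the 5 libraries there, and the log2 fold change was 0.40 (SE 0.31, edgeR unadjusted p 0.244). The other genes of this role, Pola2, Prim1, Pold1, Pold2 and Pole, had log2 fold changes of 1.05, 1.10, 1.07, 0.85 and 1.30.

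None of the 3 genes of RPA, which coats single-stranded DNA, had an unadjusted p under 0.05 by edgeR. Rpa1, the large subunit and the replication gene with the highest CPM in vehicle, measured 55.1, 64.1 and 58.8 CPM with vehicle and 68.3 and 94.2 CPM with UMBO. Its groups did not overlap although the log2 fold change was only 0.45 (SE 0.20, edgeR unadjusted p 0.0631). Rpa2 measured 9.88, 13.8 and 9.30 CPM with vehicle and 12.5 and 28.5 CPM with UMBO, at a log2 fold change of 0.90 (SE 0.38, edgeR unadjusted p 0.0579). Rpa3 measured 5.87, 8.32 and 5.82 CPM with vehicle and 6.81 and 19.6 CPM with UMBO, at a log2 fold change of 0.98 (SE 0.46, edgeR unadjusted p 0.0769). In both, UMBO replicate 1 lay inside the vehicle range.

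Neither gene that finishes Okazaki fragments, the short pieces of the lagging strand, had an unadjusted p under 0.05. Lig1, the ligase that seals them, measured 14.5, 19.3 and 15.5 CPM with vehicle and 16.9 and 44.0 CPM with UMBO, at a log2 fold change of 0.89 (SE 0.40, edgeR unadjusted p 0.0697). Fen1, the nuclease that trims their flaps, measured 13.3, 16.1 and 10.2 CPM with vehicle and 13.9 and 35.7 CPM with UMBO, at a log2 fold change of 0.90 (SE 0.42, edgeR unadjusted p 0.0753). UMBO replicate 1 was inside the vehicle range for both. The TPM ratio of Lig1 to Lig3, a ligase known from repair and mitochondria, was 0.720, 1.18 and 0.767 with vehicle and 0.993 and 3.00 with UMBO.

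Among the 3 nucleotide supply genes, 2 had an unadjusted p under 0.05, with a median log2 fold change of 1.77. Rrm2 measured 3.68, 7.92 and 3.39 CPM with vehicle and 8.97 and 34.5 CPM with UMBO. The groups did not overlap, and the log2 fold change of 2.12 (SE 0.64, edgeR unadjusted p 0.0161) was the highest of the 39. Tyms, thymidylate synthase, measured 3.21, 5.56 and 3.11 CPM with vehicle and 4.77 and 22.2 CPM with UMBO, at a log2 fold change of 1.77 (SE 0.64, edgeR unadjusted p 0.0333). Rrm1, the large reductase subunit, measured 22.7, 25.6 and 20.4 CPM with vehicle and 25.7 and 52.5 CPM with UMBO, at a log2 fold change of 0.77 (SE 0.31, edgeR unadjusted p 0.0502). For Rrm1 the UMBO libraries lay above vehicle, UMBO replicate 1 by little.

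The TPM ratio of Rrm2 to Rrm1 was 0.644, 1.23 and 0.659 with vehicle and 1.39 and 2.61 with UMBO. The ratio of Rrm2 to Rrm2b, the p53-induced small subunit used outside S phase, was 0.261, 0.852 and 0.249 with vehicle and 0.745 and 7.75 with UMBO. In UMBO replicate 2 alone the S-phase subunit had the higher TPM of the pair.

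The size of the difference varied with the level of the gene. Of the 20 genes at or below the median vehicle level of 5.43 TPM, 17 had an unadjusted p under 0.05 and the median log2 fold change was 1.67. Of the 19 above it, 4 did, and the median was 0.89. Among all genes tested, 5.3% were higher at that p. Across the 39 genes Spearman's rho between log2 fold change and vehicle TPM was -0.65, a description over genes of the same libraries in which the vehicle level enters both measures. The genes with high vehicle levels and small differences include Rpa1, Rfc1, Gins4 and Orc6. Pcna, with the highest vehicle level at 34.5 TPM, had a larger log2 fold change than these, 0.96.

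**Figure D4:**
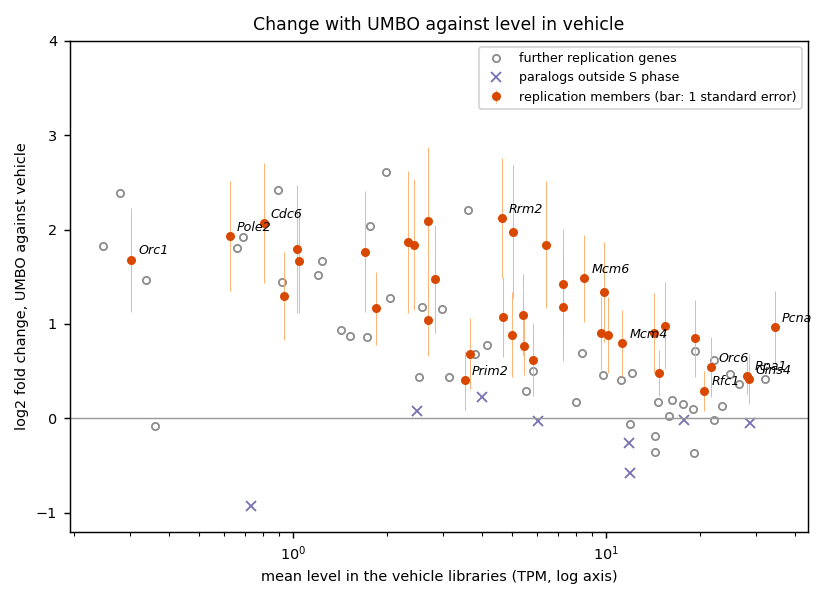
Log2 fold change, UMBO against vehicle (vertical axis), against the mean vehicle level in TPM (log axis). Filled points are the 39 replication genes (bar 1 SE), and open points the 46 further replication genes. Crosses are 8 paralogs chosen as not part of S-phase copying. Orc1, Pole2 and Cdc6 are low in vehicle with log2 fold changes of 1.68, 1.93 and 2.07, while Rfc1 at 20.5 TPM has 0.29.

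A similar ordering of genes was seen within each group. The ratio of vehicle replicate 2 to vehicle replicate 1 ran from 1.02 for Rfc1 to 2.29 for Cdc45, and the ratio of UMBO replicate 2 to UMBO replicate 1 ran from 1.38 for Rpa1 to 6.73 for Cdt1. Across the 39 genes Spearman's rho between these ratios was 0.90. The points share the 4 libraries, and no library enters both ratios. The genes that differed most between the UMBO mice were thus largely those that differed most between these vehicle mice. Such likeness was not particular to the list. Over all genes tested, log2 deviations of replicate 2 from its group mean, another measure, correlated between the groups at 0.84.

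**Figure D5:**
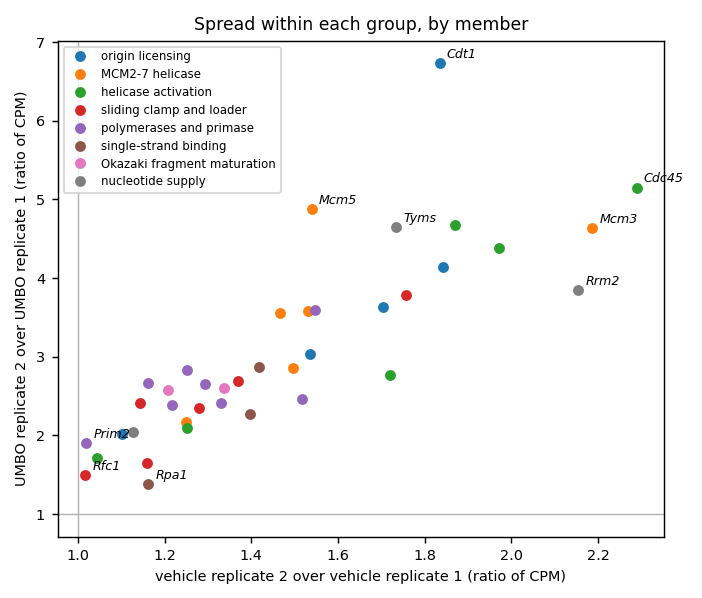
Ratio of CPM in UMBO replicate 2 over UMBO replicate 1 (vertical axis) against vehicle replicate 2 over vehicle replicate 1 (horizontal axis), 1 point a replication gene, colored by role. Points climb from Rfc1 and Rpa1 at the lower left to Cdc45, Mcm3 and Cdt1, with a Spearman's rho of 0.90 over 39 genes.

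A list of 46 further replication genes had 40 higher and 6 lower, where 50.9% of all genes tested were higher. The median log2 fold change was 0.56. At an unadjusted p under 0.05 by edgeR there were 13 (28.3%), all higher, against 5.3% of all genes. That count was 1 without vehicle replicate 1 or vehicle replicate 3, where 0.838% and 0.945% of all genes were higher at that p. UMBO replicate 2 was the highest library for 39 of the 46, against 40.4% of all genes. E2f8, a repressor of the E2F family that is itself made in S phase, measured 1.39, 2.02 and 0.791 CPM with vehicle and 4.19 and 5.60 CPM with UMBO. UMBO replicate 2 was 1.34-fold UMBO replicate 1, where the 39 genes ran from 1.38-fold to 6.73-fold, and both lay above vehicle. The log2 fold change was 1.81 (SE 0.44, edgeR unadjusted p 0.00642, adjusted p 0.497), with 1.52 to 2.20 when each library was left out in turn. With a vehicle library left out, its edgeR unadjusted p lay between 0.00454 and 0.0263 and its adjusted p between 0.420 and 0.838. E2f8 had the smallest p of the 46 genes and these fits reuse the same libraries, so they are no independent support. E2f2, an activator of the family, had a log2 fold change of 1.44 (SE 0.47, edgeR unadjusted p 0.0219), and Dscc1, part of an alternative clamp loader, 2.39 (SE 0.78, edgeR unadjusted p 0.0228). The genes with the largest p were Orc2 at -0.01 and E2f3 at 0.03, both near no difference, and Chtf8 at -0.08. The sign of Orc2, E2f3 and Chtf8 changed with the scaling, the filter or the fit.

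The origin complex was not uniform. Beside Orc1 at 1.68 and Orc6 at 0.54, the further subunits Orc2, Orc3, Orc4 and Orc5 had log2 fold changes of -0.01, -0.36, -0.36 and 0.18, none with an unadjusted p under 0.05 by edgeR. These 4 genes were named after their values were seen.

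Paralogs chosen as not part of S-phase copying numbered 8, with 2 higher and 6 lower. None had an unadjusted p under 0.05 by edgeR, and the median log2 fold change was -0.04. Rrm2b, Lig3 and Gmnc, a geminin relative of multiciliated cells, had log2 fold changes of -0.58, -0.26 and -0.93. UMBO replicate 2 decided the values of Rrm2b and Gmnc, which were -0.03 and -0.12 without it and -1.50 and -3.09 without UMBO replicate 1. Tk2, Rad17 and Polg, for mitochondrial thymidine kinase, a checkpoint clamp loader and the mitochondrial polymerase, had -0.05, -0.03 and -0.02, a sign that also changed with the scaling.

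Members with neighbors give a comparison within a locus. Starts of 6 replication genes lay head to head with another gene within 1000 bp in GENCODE M21. Mcm4 starts 466 bp from Prkdc, the DNA-dependent protein kinase, which had a log2 fold change of -0.47 (SE 0.29) where Mcm4 had 0.80. Orc1 starts 87 bp from Prpf38a, a splicing factor gene with 0.31, and Gins1 659 bp from Abhd12, a lipase gene with -0.05. Rpa1 and Smyd4, 109 bp apart, had 0.45 and 0.56, and Pole and Pxmp2, 120 bp apart, had 1.30 and 0.66. Rpa3 had 0.98 and its neighbor Umad1, 115 bp away, had -0.55. The difference between a pair was not tested.

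Exons of 11 replication genes overlapped exons on the opposite strand, and whether the counting used strand is not given in the sources used here, so their reads and those of the partner may not be told apart. Of these 11, 5 had an unadjusted p under 0.05 (median log2 fold change 1.30), and of the 28 without such an overlap 16 did (median 1.08). Among all genes tested, 5.3% were higher at that p. Rfc2 shares 952 bp with Lat2, an immune adaptor gene that itself had a log2 fold change of 1.88 (SE 0.71, edgeR unadjusted p 0.0381). The Pcna pseudogene Pcna-ps2 took 26 to 86 reads a library.

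The libraries differed in cell markers as well. Summed CPM of 10 mitosis genes such as Mki67 and Top2a was 45.3, 102 and 31.7 with vehicle and 109 and 446 with UMBO. All 10 were higher at an unadjusted p under 0.05 by edgeR (median log2 fold change 2.14), as were 5.3% of all genes tested. UMBO replicate 2 was the highest library for each of the 10, and for 40.4% of all genes. The 10 neuron markers summed to 9939, 6814 and 7192 CPM with vehicle and 7234 and 3631 CPM with UMBO, none with an unadjusted p under 0.05 by edgeR. The 8 monocyte and macrophage markers summed to 12.2, 59.8 and 20.7 CPM with vehicle and 33.6 and 150.3 CPM with UMBO, with 1 of 8 past the threshold. The 8 microglia markers summed to 324, 456 and 386 CPM with vehicle and 610.5 and 733 CPM with UMBO, with 5 of 8 past it and UMBO replicate 1 also above vehicle. The 8 T cell markers summed to between 20.6 and 35.1 CPM with vehicle and to 13.2 and 50.5 CPM with UMBO. The 8 endothelial markers summed to 165 to 226 CPM with vehicle and 275 CPM in both UMBO libraries, and the 5 red blood cell genes to 71.8 to 165 CPM with vehicle and 181 and 217 CPM with UMBO. Oligodendrocyte markers gave 6003 to 6147 CPM with vehicle and 6406 and 5536 CPM with UMBO, astrocyte markers 4558, 4160 and 5421 CPM with vehicle and 6096 and 3948 CPM with UMBO, and choroid plexus markers 801 to 831 CPM with vehicle and 850.4 and 495 CPM with UMBO. At an unadjusted p under 0.05 by edgeR, 4 of the 8 endothelial markers and 1 of the 8 astrocyte markers were higher. None of the T cell, red blood cell, oligodendrocyte or choroid plexus markers had such a p. These marker counts are for the fit of all 5 libraries only. No marker of any list was at 0 in any library. The part of these differences in the replication gene result was not tested. In bulk tissue, more cells of a type and more RNA per cell cannot be told apart.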

How the data were processed

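RNA of the right hemisphere was sequenced by the authors (SMARTER mRNA kit). Per the labels, reads were mapped with STAR 2.7.2a to GRCm38, and the authors deposited raw counts of reads per Ensembl gene, 1 table a library, without normalization. The annotation release and strand setting are not given in the sources used here. Groups came from the sample labels. The 39 genes and the other lists were chosen with earlier results of these data known, so no list supports its own direction.

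Symbols, positions and exon lengths were taken from GENCODE M21 (GRCm38). Chtf8 had more than 1 identifier, and the one with most reads was used. Counts were normalized by TMM, filtered with filterByExpr and fitted over all 23592 genes that remained in edgeR 4.0.16 (limma 3.58.1, R 4.3.3) by its quasi-likelihood method. Adjusted p-values are Benjamini-Hochberg over those genes, read at 0.05, and the estimated common dispersion was 0.118. The SE of a log2 fold change is its size over the square root of F. DESeq2 1.42.0, other scalings, other filters, the replicate number as a block and each library left out were alternatives. The methods describe mice divided into 2 groups, so the spread between samples is taken as that between mice. The steps were tested on simulated data.

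In each role, the 2 genes with the smallest p and the one with the largest p are given in every library; of the further genes and paralogs, the 3 with the smallest and the 3 with the largest p are named. The other members are given by their fold changes.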

Additional observations from a re-analysis of the deposited data

How the results depend on the processing

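The alternatives were DESeq2 size factors, library size only, no filter on low counts, at least 1 CPM in 2 libraries and the DESeq2 Wald test. With these, between 17 and 31 replication genes had an unadjusted p under 0.05, and 0 an adjusted one. Of the genes in each fit, 4.87% to 7.31% were higher at an unadjusted p under 0.05. The highest share came without the filter, which also gave the 31. Without the filter and in the DESeq2 Wald test, the genes were the 40435 with any read. The median log2 fold change stayed between 1.06 and 1.24. Library size only raised the all-gene median from 0.01 to 0.13. With the replicate number as a block there were 33 at an unadjusted (14.4% of all genes) and 18 at an adjusted p under 0.05 (6.05% of all genes were higher at that adjusted p), and 21 further replication genes at an unadjusted p. Only 2 numbers are shared. Over all genes tested, deviations from the group mean correlated between the groups at 0.57 for replicate 1 and 0.84 for replicate 2. The deviations of the 2 UMBO libraries are opposite by construction, so these correlations are not separate observations. Vehicle replicate 3 is alone in its block and adds nothing to the comparison, which leaves little residual freedom. Nothing says that a number marks a pair, so no conclusion is drawn from this block. Leaving out 1 library at a time gave 0 to 39 replication genes at an unadjusted p, 0 to 34 at an adjusted p, 11 to 39 with groups that did not overlap (13.2% to 42.2% of all genes), medians of 0.19 to 1.63, and 1 to 34 further genes at an unadjusted p. Named genes changed sign as follows. Without UMBO replicate 2, Orc6 (-0.0523 to 0.932 over the left-out libraries), Gins4 (-0.0211 to 0.722), Rfc1 (-0.0240 to 0.522) and Prim2 (-0.130 to 0.765) fell below 0, as did Gmnn (-0.0336) and Rfc5 (-0.119). Chtf8 turned to 0.0457 with library size only and 0.161 with the block (-0.309 to 0.165 over the left-out libraries), and E2f3 to -0.0146 with the block (-0.175 to 0.187). With library size only and with at least 1 CPM in 2 libraries, Orc2 turned to 0.107 and 0.0265 (-0.0345 to 0.0394), Rad17 to 0.0891 and 0.0109 (-0.140 to 0.0566) and Polg to 0.0994 and 0.0206 (-0.0887 to 0.0192). Tk2 turned to 0.0622 with library size only (-0.124 to 0.0383). The cause of these changes was not tested. The lowest count of a member in a library was 26, for Orc1, and the effect of depth was not tested.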
